A study of Mus musculus with 35 samples.

Results

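Colitis caused by dextran sulfate sodium (DSS) in Reg3a-transgenic mice was described by comparing 5 colons taken after DSS with 5 colons from untreated mice of the same genotype. The arrays were chosen by their titles, which name colon, DSS or basal, TG and a mouse number, and they make up 10 of the 35 arrays of the series. All mice were of the strain C57BL/6N, and all 10 carried the transgene. The DSS mice drank 3% DSS for 5 days and plain water afterwards, while the untreated mice drank plain water throughout. The protocol gives day 12 as the day of collection. For the Reg3a transgene, the species, the promoter and the expressing cells are not stated in the sources used, nor are age, sex, cage, litter or batch. A treatment characteristic places these mice after a transfer of intestinal microbes, whereas the titles, the protocol and the design text describe mice with or without DSS, and the titles were followed. The untreated transgenic mice are numbered TG631, 31, 29, 28 and 26 and the DSS mice 49, 48, 47, 46 and 44. Wherever 5 values are listed they follow that order, and no mouse number is shared between the groups.

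DSS is toxic to the lining of the colon. It breaches the epithelial barrier, bacteria reach the mucosa, and inflammation is followed by regrowth of the crypts once DSS is withdrawn. Reg3 proteins are lectins that the gut epithelium secretes and that bind the cell wall of bacteria. In colitis the epithelium also releases other antimicrobial proteins and oxidants, while recruited neutrophils and monocytes, fibroblasts and dividing crypt cells change the make-up of the tissue. In whole tissue, fewer cells of a type and less RNA per cell cannot be told apart.

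Total RNA (200 ng per mouse) was measured on 1 array per mouse, and the deposited log2 signal of 19908 genes, with 1 probe set per gene, was compared. A level below is a log2 signal and a change is the mean of the DSS mice minus the mean of the untreated mice, so a change of 1 is a doubling. SE is the moderated standard error from limma, ± is the SD over 5 mice, and a gene is said to have risen or fallen when its adjusted p was under 0.05. The number of arrays, 5 per group, limits the precision: the median SE over all genes was 0.114. The p-values measure the spread between these mice only. Within-array medians ranged from 6.65 to 6.87 and the SD over probe sets from 1.73 (untreated mouse 31) to 2.02 (DSS mouse 49). DSS mouse 49 had the lowest mean correlation with its own group, 0.957 against 0.974 to 0.985 in the other 9 mice. In untreated mouse TG631 the 12 pancreatic acinar genes measured averaged 3.35 above the mean of the untreated group, and in the other 9 mice they lay between -1.65 and -0.206 from that mean. Xist, which marks female cells, read 11.2 to 11.9 in untreated mice TG631 and 26 and DSS mice 46 and 44, and 4.87 to 4.97 in the other 6. The 12 colon epithelium markers averaged 11.4 to 11.8 in every mouse, and the 14 smooth muscle markers 10.3 to 10.7, so the samples held muscle as well as epithelium although the series title speaks of epithelial cells. The mouse Reg3a probe set read 5.15 ± 0.06 in untreated and 5.05 ± 0.11 in DSS mice (change -0.10, SE 0.08, adjusted p = 0.386). Whether it reads the transgene was not tested.

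With DSS 689 genes rose (3.46% of those tested) and 216 fell (1.08%), and 148 of the rises and 15 of the falls were at least 2-fold. The median change over all genes was -0.015. At an unadjusted p under 0.05, 5208 genes (26.2%) differed, 14.4% of all genes being higher and 11.8% lower, which is the background for the unadjusted counts of the lists. In 596 of the 689 and 188 of the 216 the 2 groups did not overlap. Over all genes, 5.4% lay higher in every DSS mouse than in every untreated mouse and 3.3% lay lower. DSS mouse 49 was singled out beforehand as the most inflamed of its group by its gene levels, so its high values are a description. By Dixon's ratio 1 DSS mouse stood apart from the others in 1298 genes (6.52% of those tested), and in 958 it was mouse 49. Chance alone passes this ratio in about 1 of 20 groups. In the untreated group 1 mouse stood apart in 1215 genes (6.1%), and in 789 it was mouse 31. Without DSS mouse 49, 527 genes rose (2.65%) and 146 fell (0.733%), and 471 of those rises and 130 of those falls were also called with all 5 mice. No gene called with all 5 mice changed sign without it. The number called depended on single mice. It was 673 without mouse 49, 178 without DSS mouse 48, 1668 without DSS mouse 47, 420 without DSS mouse 46 and 549 without DSS mouse 44. Among untreated mice it was 596 without mouse TG631, 587 without 31, 283 without 29, 729 without 28 and 230 without 26. In each of these fits all 905 genes kept their sign. Because the 905 were called on these same mice, that could hardly have come out otherwise and is no test of stability. Rises made up 76.1% of the calls, a share that went to 65.3% without DSS mouse 47 and 86% without DSS mouse 48, to 61.8% after quantile normalization, 57.3% with array weights, 64.9% with a trended robust variance, and 87.1% when dim genes were left out.

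**Figure D1:**
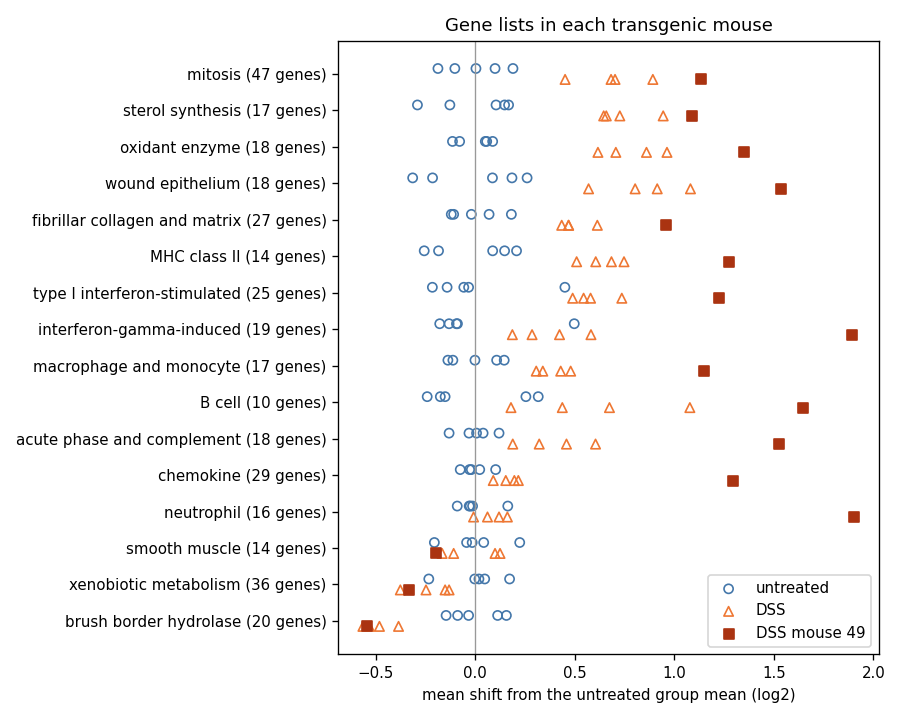
Mean shift of 16 gene lists in each mouse, in log2 units from the mean of the untreated transgenic group (horizontal axis). Circles are the 5 untreated mice, triangles the DSS mice and the filled square DSS mouse 49. For mitosis, sterol synthesis and oxidant enzymes all 5 DSS mice lie to the right of all untreated mice, whereas for neutrophil genes DSS mouse 49 sits at 1.90 and the other DSS mice between -0.01 and 0.16.

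RNA of a few secreted proteins of the epithelium and of 8 genes in an oxidant enzyme list rose. Clca4b, a chloride channel accessory protein of the surface epithelium, read 7.72, 6.37, 6.47, 6.86 and 6.46 in untreated mice and 12.51, 12.19, 10.12, 11.85 and 10.63 with DSS. Every DSS mouse lay above every untreated mouse, and Clca4b rose 25.8-fold (change 4.69, SE 0.44, adjusted p = 0.00299). Retnlb, a bactericidal goblet cell protein, read 4.91, 5.69, 4.84, 7.59 and 4.91 and then 11.83, 10.02, 8.37, 10.16 and 8.51. Untreated mouse 28 was the highest of its group and still lay below all DSS mice (change 4.19, SE 0.69, adjusted p = 0.0122). Pla2g2a, a gene for a secreted phospholipase, read 6.67, 6.42, 5.51, 6.05 and 6.20 and then 9.79, 8.35, 7.68, 8.71 and 8.64 (change 2.47, SE 0.33, adjusted p = 0.00701). Only RNA was measured, and whether mice of this strain make a working enzyme from it was not tested. Pglyrp1, which binds bacterial peptidoglycan, rose evenly in all 5 mice, from 11.11 ± 0.12 to 12.11 ± 0.18 (change 1.00, SE 0.10, adjusted p = 0.00344). Mptx1, a pentraxin of the gut epithelium, went the other way. It read 12.65, 9.69, 12.48, 10.78 and 12.63 untreated and 6.09, 7.92, 8.72, 8.76 and 9.41 with DSS, an 11.1-fold fall (change -3.47, SE 0.70, adjusted p = 0.0225), with untreated mouse 31 the nearest to the DSS mice.

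Of 22 genes measured in the secreted antimicrobial list, 3 rose (Retnlb, Pla2g2a and Pglyrp1) and Mptx1 alone fell, with a median change of 0.04. In limma 7 of the 22 were higher and 4 lower at an unadjusted p under 0.05, against 14.4% and 11.8% of all genes. Without DSS mouse 49 the rises were 5. The falls were 2 without untreated mouse 28, and without untreated mouse 29 or 26 or DSS mouse 48 Mptx1 was not called. The mouse lectins Reg3g and Reg3b did not pass. Reg3g read 5.36, 5.76, 5.35, 6.92 and 5.22 untreated and 11.30, 8.65, 5.61, 5.99 and 6.28 with DSS (change 1.85, SE 0.93, adjusted p = 0.228, and 0.91 with adjusted p = 0.412 without mouse 49). Reg3b read 5.54, 6.15, 5.88, 6.24 and 5.78 and then 10.97, 7.31, 5.62, 5.86 and 5.72 (change 1.18, SE 0.86, adjusted p = 0.38, and 0.21 without mouse 49). High Reg3g and Reg3b were thus found in DSS mice 49 and 48, and in the other 3 DSS mice both lay within the untreated range. Lcn2, an iron-withholding protein that is used as a marker of colitis, read 6.56, 6.69, 6.86, 6.79 and 6.998 and then 11.35, 8.18, 7.25, 7.83 and 7.41. Every DSS mouse lay above every untreated mouse, yet the change of 1.63 (SE 0.63) did not pass with mouse 49 (adjusted p = 0.139) and a change of 0.89 did pass without it (adjusted p = 0.0246). Slpi, a protease inhibitor with antimicrobial action, had a change of 0.74 (adjusted p = 0.0592) with all mice and 0.54 (adjusted p = 0.0408) without mouse 49. It also passed without mouse 44 and under 2 alternatives that kept all mice.

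The oxidant enzyme list also holds partner proteins and Gpx2, which removes peroxides. Of its 18 genes measured, 8 rose and 0 fell (median change 0.58), and 10 rose without DSS mouse 49. At an unadjusted p under 0.05 in limma, 12 were higher and 0 lower, against 14.4% and 11.8% of all genes. Nox1, the colon's own NADPH oxidase, read 8.28, 6.82, 6.95, 7.59 and 7.56 untreated and 9.97, 9.98, 9.38, 9.99 and 9.82 with DSS. The DSS mice were closer to one another than the untreated mice were (change 2.39, SE 0.25, adjusted p = 0.00344). Duox2, which releases hydrogen peroxide at the mucosal surface, rose from 8.27 ± 0.46 to 10.32 ± 0.48 (change 2.05, SE 0.26, adjusted p = 0.00532), and its maturation factor Duoxa2 rose by 2.16 (SE 0.24, adjusted p = 0.00507). Nos2, the inducible nitric oxide synthase, read 6.09, 6.59, 6.34, 6.63 and 6.39 and then 10.84, 9.55, 7.78, 9.27 and 8.04. Its rise differed more from mouse to mouse, and the groups were still apart by over 1 (change 2.69, SE 0.47, adjusted p = 0.0153). Gpx2, a glutathione peroxidase of the gut epithelium, rose by 1.04 (SE 0.14, adjusted p = 0.00612) and Cyba, the membrane partner of NADPH oxidases, by 1.097 (SE 0.22, adjusted p = 0.0242). The count of 8 went to 5 without untreated mouse 26 and to 4 without DSS mouse 48. Of the genes named here Nos2 was lost without DSS mouse 48, and Cyba without untreated mouse 26 or DSS mouse 46 or 48.

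Among 18 genes of wound-associated epithelium, 4 rose and 0 fell (median change 0.60; 12 were higher and 0 lower at an unadjusted p under 0.05). Besides Clca4b these were Dhrs9, a retinol dehydrogenase, with a change of 2.52 (SE 0.40, adjusted p = 0.0114), Sprr1a, a cornified envelope protein (1.11, adjusted p = 0.0206), and Phlda1 (0.64, adjusted p = 0.0417). Only 2 were called without untreated mouse 29 or DSS mouse 48. Phlda1 was called in 2 of the 10 fits that left out 1 mouse, and Sprr1a was lost without mouse 29 or 48. Plet1, a surface protein of regenerating epithelium, was high in all DSS mice (13.08, 12.94, 10.98, 12.49 and 11.63), but also in untreated mice 31 and 28 (8.97, 11.15, 7.07, 11.30 and 7.26). The groups overlapped, and its change of 3.08 did not pass (SE 0.83, adjusted p = 0.0581). It passed when untreated mouse 31 or 28 or DSS mouse 47 was left out, and under 5 alternatives that kept all mice. Cd177, a surface glycoprotein best known from neutrophils, rose by 2.24 (SE 0.35, adjusted p = 0.0104) from 8.41, 9.80, 8.25, 9.97 and 8.25 to 11.21, 11.54, 11.30, 11.003 and 10.83. Mouse 49, the one DSS mouse with high neutrophil genes, lay within the range of the other 4 DSS mice. Ms4a12, a colon-restricted membrane protein, rose by 2.08 (SE 0.39, adjusted p = 0.0185), a call lost without DSS mouse 48.

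**Figure D2:**
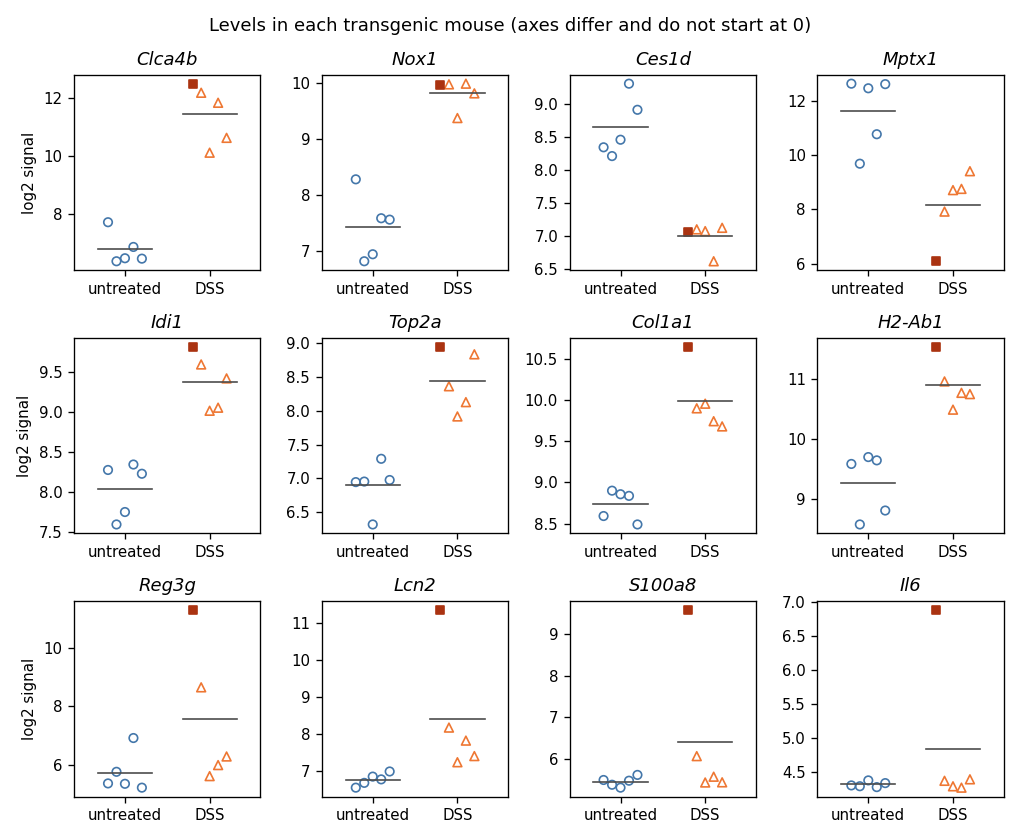
Log2 signal (vertical axis) of 12 genes in each mouse. Circles are untreated mice, triangles DSS mice, the filled square DSS mouse 49, and short lines the group means. Clca4b, Nox1, Idi1, Top2a, Col1a1 and H2-Ab1 were higher in every DSS mouse, while S100a8 and Il6 were above the untreated range by more than 1 only in mouse 49 (9.58 and 6.89).

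Few goblet and absorptive cell genes were called. Of 19 goblet and mucus genes 1 rose and 0 fell (median change 0.205; 4 were higher and 0 lower at an unadjusted p under 0.05). It was Tff3, a trefoil peptide that covers wounded epithelium, with a change of 0.52 (SE 0.11, adjusted p = 0.0244), lost without untreated mouse 29 or DSS mouse 46 or 48, and 2 rose without DSS mouse 47. Muc2, the main mucin of the colon, read 13.74 ± 0.39 and 13.94 ± 0.10 (change 0.20, 95% interval -0.15 to 0.56, adjusted p = 0.413). Of 33 absorptive colonocyte genes 1 rose and 1 fell (median change -0.04). At an unadjusted p under 0.05 in limma, 7 of the 33 were lower and 3 higher, against 11.8% and 14.4% of all genes. Krt20, a keratin of mature surface cells, had a change of 0.80 (adjusted p = 0.032), and Car4, a carbonic anhydrase of the apical membrane, a change of -0.35 (adjusted p = 0.0439). Both calls were fragile: Krt20 was lost without any 1 of 6 mice, 49 among them, and Car4 without any 1 of the 10. Rises numbered 2 without untreated mouse 28 or DSS mouse 47, and falls 2 without untreated mouse 31. Aqp8, a water channel, read 11.85, 11.90, 12.33, 12.24 and 12.39 and then 10.69, 11.95, 12.04, 11.47 and 11.75 (change -0.57, SE 0.23, adjusted p = 0.152). Its lowest level was that of mouse 49. Slc26a3, the chloride-bicarbonate exchanger of the colon, differed by -0.43 (SE 0.17, adjusted p = 0.139) and Car1 by -0.04 (adjusted p = 0.805). Slc26a3 passed under 3 alternatives that kept all mice.

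Several genes fell with DSS in a brush border hydrolase list, which also holds transporters such as Slc15a1 and the oxidases Maoa and Maob. Of 20 measured, 4 fell and 0 rose (median change -0.42; 12 were lower and 0 higher at an unadjusted p under 0.05), and 4 fell without mouse 49 as well, though 7 fell without untreated mouse 31. The mean of the list lay between -0.565 and -0.386 in the DSS mice and between -0.147 and 0.156 in the untreated mice, without overlap. Ces1d, a carboxylesterase, read 8.34, 8.21, 8.46, 9.31 and 8.91 untreated and 7.05, 7.10, 7.07, 6.61 and 7.12 with DSS, a 3.15-fold fall (change -1.65, SE 0.20, adjusted p = 0.00507). Ces2a, another carboxylesterase, fell by 1.32 (SE 0.15, adjusted p = 0.00507), and Mep1a, a metalloprotease of the apical membrane, by 1.19 (SE 0.17, adjusted p = 0.00744). Vnn1, a pantetheinase, fell by 0.50 (adjusted p = 0.0302) and was lost without untreated mouse 26 or 29 or DSS mouse 46 or 48. Mouse 49 did not stand apart in Ces1d, Ces2a or Mep1a.

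Few genes of lipid use were called, and the counts do not show a fall of either list as a whole. Apob, the scaffold of lipoprotein particles, read 8.98, 8.23, 8.94, 8.94 and 9.03 and then 7.97, 7.37, 7.86, 7.28 and 7.70 (change -1.19, SE 0.18, adjusted p = 0.00973). It was the single fall among 18 lipid absorption genes, of which Dgat2, a triglyceride synthase, was the single rise (0.63, adjusted p = 0.0207, lost without mouse 26, 29 or 48). Without untreated mouse 31 both counts were 2, and without DSS mouse 49 the falls were 2. At an unadjusted p under 0.05 in limma, 3 of the 18 were lower and 2 higher, against 11.8% and 14.4% of all genes. Of 24 fatty acid oxidation genes 2 fell and 0 rose (median change -0.16). At an unadjusted p under 0.05 in limma, 4 were lower and 1 higher, against the same shares of all genes. Pdk4, a kinase that turns pyruvate away from oxidation when fat is burned, read 7.24, 7.35, 7.89, 8.47 and 7.80 and then 6.18, 6.16, 6.61, 6.23 and 6.20 (change -1.47, SE 0.20, adjusted p = 0.0072). Acaa2, the thiolase of the mitochondrial pathway, fell by 0.72 (SE 0.10, adjusted p = 0.00701).

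Of 36 xenobiotic metabolism genes 7 fell and 3 rose (median change -0.22), against 1.08% and 3.46% of all genes. In limma 11 were lower and 3 higher at an unadjusted p under 0.05, against 11.8% and 14.4% of all genes. Dpyd, which degrades pyrimidines and fluorouracil, read 7.34, 6.71, 6.998, 7.26 and 7.62 and then 5.95, 5.80, 6.10, 5.72 and 6.15 (change -1.24, SE 0.16, adjusted p = 0.00556). Abcb1a, an efflux pump of the apical membrane, fell by 0.93 (SE 0.16, adjusted p = 0.013). Cyp2c55, a cytochrome P450, fell from 12.23, 12.36, 12.16, 12.30 and 11.99 to 10.21, 11.15, 11.45, 11.13 and 11.93, with mouse 49 lowest and mouse 44 just under the untreated range (change -1.04, SE 0.25, adjusted p = 0.0403, lost without any 1 of 7 mice). Nqo1, a quinone reductase, rose by 1.05 (SE 0.18, adjusted p = 0.0134). Gstp1, a glutathione transferase, rose by 0.85 (SE 0.15, adjusted p = 0.0168). The number of falls was 5 without DSS mouse 49. It was 2 without untreated mouse TG631 or 26 or DSS mouse 48 or 46, 3 without untreated mouse 31, and 4 without untreated mouse 29 or 28 or DSS mouse 44.

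A few genes of tuft and enteroendocrine cells fell. Of 10 tuft cell genes 3 fell and 0 rose (median change -0.22; 4 were lower and 0 higher at an unadjusted p under 0.05). Trpm5, the cation channel of these chemosensory cells, read 6.52, 6.67, 6.44, 6.69 and 6.54 and then 5.80, 5.90, 6.23, 5.96 and 5.97 (change -0.60, SE 0.09, adjusted p = 0.0104), and it was called in each of the 10 fits with 1 mouse left out. Dclk1 (-0.40, adjusted p = 0.0353) and Alox5 (-0.47, adjusted p = 0.0425) were each lost in 8 of these fits, and 1 gene of the list was called without untreated mouse TG631, 29, 28 or 26 or DSS mouse 48, 46 or 44. Of 13 enteroendocrine genes 3 fell and 0 rose (median change 0.003; 3 were lower and 2 higher at an unadjusted p under 0.05). Pcsk1, which cleaves prohormones, fell by 0.59 (SE 0.10, adjusted p = 0.0155), Chga, a granule protein, by 0.67 (adjusted p = 0.0308) and the neuropeptide Nmu by 0.58 (adjusted p = 0.0396). The count was 1 without untreated mouse TG631 or 26 or DSS mouse 46 and 0 without DSS mouse 48. Cpe, which trims prohormones in neurons and endocrine cells, fell by 0.74 (SE 0.12, adjusted p = 0.011), Sparcl1, a matrix protein, by 0.92 (SE 0.13, adjusted p = 0.00701), and Vsig2, a membrane protein of the immunoglobulin family, by 1.53 (SE 0.26, adjusted p = 0.0134).

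The mean of the mitosis genes was higher in every DSS mouse than in every untreated mouse. For single genes this held in 37 of 47, against 5.4% of all genes. Of 47 measured, 33 rose and 0 fell (median change 0.74; 45 were higher and 0 lower at an unadjusted p under 0.05), against 3.46% of all genes. Without DSS mouse 49 the rises were 31 and the median 0.63, and with any 1 mouse left out they were 23 to 40. The list's mean was 0.451 to 1.13 above the untreated mean in the DSS mice and -0.188 to 0.189 in the untreated mice. Top2a, the topoisomerase that untangles chromosomes, read 6.94, 6.95, 6.32, 7.29 and 6.98 and then 8.95, 8.36, 7.92, 8.13 and 8.84 (change 1.54, SE 0.22, adjusted p = 0.00778). Cdk1, the kinase that drives entry into mitosis, read 7.51, 7.87, 7.10, 8.05 and 7.47 and then 9.37, 8.77, 8.58, 8.88 and 8.96 (change 1.31, SE 0.18, adjusted p = 0.00748). Its cyclin partner Ccnb2 rose by 1.33 (SE 0.19, adjusted p = 0.00746), the proliferation marker Mki67 by 1.35 (SE 0.21, adjusted p = 0.0104), the centromeric histone Cenpa by 0.94 (SE 0.13, adjusted p = 0.00701) and the cytokinesis motor Kif23 by 1.08 (SE 0.15, adjusted p = 0.00701). These 6 were called in each of the 10 fits with 1 mouse left out. In all of them every DSS mouse lay above every untreated mouse.

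Fewer genes of DNA replication were called. Of 37 measured, 3 rose and 0 fell (median change 0.34; 22 were higher and 0 lower at an unadjusted p under 0.05), and all 37 changes were above 0. They were Tk1, a thymidine kinase (0.59, SE 0.11, adjusted p = 0.0189), and the ribonucleotide reductase subunits Rrm2 (0.87, SE 0.18, adjusted p = 0.0237) and Rrm1 (0.87, SE 0.20, adjusted p = 0.0349). The count was 5 without untreated mouse 31, 9 without DSS mouse 47 and 1 without untreated mouse 29 or 26 or DSS mouse 48. Of 20 crypt stem cell and Wnt genes 1 rose and 1 fell (median change -0.04). In limma 5 of the 20 were lower and 1 higher at an unadjusted p under 0.05, against 11.8% and 14.4% of all genes. Without DSS mouse 49 these unadjusted counts were 2 lower and 1 higher. Smoc2, a secreted matricellular protein, had a change of 0.51 (adjusted p = 0.0223, lost without mouse 29 or 48), and Znrf3, which removes Wnt receptors, a change of -0.35 (adjusted p = 0.0483), lost without any 1 of 8 mice. Without DSS mouse 47 the falls were 2. Lgr5, the marker of crypt base stem cells, read 7.55, 6.86, 7.47, 7.07 and 7.99 and then 6.75, 6.62, 7.13, 6.69 and 7.36. The groups overlapped (change -0.48, 95% interval -0.94 to -0.02, adjusted p = 0.179).

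The promoters of the mitosis genes were searched for the letters of known cell-cycle elements. The whole list was searched, called or not, so the shares below do not depend on the changes with DSS. The same holds for the promoter searches of the other lists. RefSeq windows of GRCm38.p6, from 250 bases before to 50 after the start, were matched to 38 of the 47. The cell-cycle homology region core TTTGAA, read on both strands, was present in 28 of the 38 windows (73.7%) and in 15.1% of the windows of all 15537 genes with one. The CCAAT box was present in 27 (71.1%), against 38.2% of all windows. The 150 bases before the start are printed for Cdk1 (chr10:69352913-69353062, minus strand) and Top2a (chr11:99024190-99024339, minus strand), which hold both elements. Capitals mark each match of TTTGAA or CCAAT on either strand, and no matches of the 2 motifs overlap. They are letters found in these stretches, and no binding was measured.
Cdk1: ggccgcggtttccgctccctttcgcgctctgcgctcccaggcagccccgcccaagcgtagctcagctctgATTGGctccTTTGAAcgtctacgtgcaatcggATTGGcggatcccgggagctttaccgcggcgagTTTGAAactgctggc
Top2a: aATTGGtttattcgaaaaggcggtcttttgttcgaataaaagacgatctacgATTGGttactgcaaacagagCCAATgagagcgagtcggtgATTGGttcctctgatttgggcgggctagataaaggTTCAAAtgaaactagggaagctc

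Sterol synthesis genes rose nearly as a whole pathway. Of 17 measured, 14 rose and 0 fell (median change 0.80; 15 were higher and 0 lower at an unadjusted p under 0.05), and 12 rose without DSS mouse 49, with a median of 0.72. The list's mean lay 0.645 to 1.09 above the untreated mean in the DSS mice and between -0.291 and 0.167 in the untreated mice. The count was 7 without DSS mouse 48. Hmgcs1, which makes the precursor of mevalonate, read 9.89, 9.47, 9.25, 9.68 and 9.84 and then 10.75, 10.84, 10.44, 10.31 and 10.64 (change 0.97, SE 0.14, adjusted p = 0.00829). Mvk, the mevalonate kinase, read 8.08, 8.20, 8.02, 8.31 and 8.10 and then 8.85, 8.89, 8.79, 8.72 and 8.70. The change was modest, 0.65 or 1.57-fold, but the spread within groups was small (SE 0.08, adjusted p = 0.0053). Idi1, an isomerase of the isoprenoid branch, rose from 8.28, 7.60, 7.75, 8.35 and 8.23 to 9.81, 9.59, 9.02, 9.05 and 9.42 (change 1.34, SE 0.19, adjusted p = 0.00761). Nsdhl, a dehydrogenase of the late steps, rose by 1.04 (SE 0.13, adjusted p = 0.00591). These 4 were called in each of the 10 fits with 1 mouse left out.

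Some regulators of the pathway rose as well. Of 14 sterol regulation and transport genes 3 rose and 0 fell (median change 0.33; 10 were higher and 0 lower at an unadjusted p under 0.05). The transcription factor Srebf2, which drives sterol synthesis, rose by 0.48 (SE 0.09, adjusted p = 0.0198). Srebf1, which drives fatty acid synthesis, rose by 0.52 (SE 0.10, adjusted p = 0.0219), and both were lost without untreated mouse 29 or 26 or DSS mouse 48. The count was 0 without each of these 3 mice and 5 without DSS mouse 47. Fatty acid synthesis genes rose in 5 of 18 and fell in 0 (median change 0.37; 10 were higher and 1 lower at an unadjusted p under 0.05), with 2 rises left without DSS mouse 48. Acaca, the rate-limiting carboxylase, rose by 0.85 (SE 0.13, adjusted p = 0.0109), the elongase Elovl5 by 0.92 (SE 0.16, adjusted p = 0.0137), the synthase Fasn by 0.76 (SE 0.14, adjusted p = 0.0172) and the desaturase Scd2 by 1.24 (SE 0.24, adjusted p = 0.019). Fasn and Scd2 were lost without DSS mouse 48.

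Of the 17 sterol synthesis genes 14 had a RefSeq window, and 13 of them (92.9%) held a CCAAT box, against 38.2% of all windows. The sterol regulatory element core TCACNCCAC was found in 1 of the 14, that of Hmgcs1, and in 1.16% of all windows. The 150 bases before the start are shown for Hmgcs1 (chr13:119690201-119690350, plus strand), with the sterol element and a CCAAT box read on the opposite strand in capitals, and for Idi1 (chr13:8885456-8885605, plus strand), with its 2 CCAAT boxes in capitals. In these stretches the motifs do not overlap.
Hmgcs1: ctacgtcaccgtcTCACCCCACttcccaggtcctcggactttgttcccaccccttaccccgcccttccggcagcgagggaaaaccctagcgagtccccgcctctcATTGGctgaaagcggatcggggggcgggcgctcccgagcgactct
Idi1: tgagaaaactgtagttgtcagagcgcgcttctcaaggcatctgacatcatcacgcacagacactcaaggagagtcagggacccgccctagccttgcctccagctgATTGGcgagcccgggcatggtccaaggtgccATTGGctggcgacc

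Part of the stromal genes rose with DSS. Fibrillar collagens and other matrix proteins rose in 12 of 27 and fell in 0 (median change 0.48; 19 were higher and 0 lower at an unadjusted p under 0.05), and 12 also rose without DSS mouse 49. Sparc, a collagen-binding matricellular protein, read 10.72, 10.50, 11.10, 10.67 and 10.45 and then 12.26, 11.83, 11.63, 11.86 and 11.98 (change 1.23, SE 0.14, adjusted p = 0.00507). Col1a1, a chain of type I collagen, read 8.59, 8.90, 8.86, 8.84 and 8.49 and then 10.64, 9.90, 9.95, 9.74 and 9.68. Mouse 49 was the highest, and without it the change was 1.08 in place of 1.25 (adjusted p = 0.00283 and 0.00701). Col1a2 rose by 1.09 (SE 0.15, adjusted p = 0.00701) and Col6a3 by 0.83 (SE 0.10, adjusted p = 0.00507). The count was 6 without untreated mouse 26 and 7 without DSS mouse 48.

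Basement membrane genes rose in 7 of 17 and fell in 0 (median change 0.30; 9 were higher and 1 lower at an unadjusted p under 0.05), led by Col4a1 (0.53, SE 0.08, adjusted p = 0.0105) and Lamb1 (0.63, SE 0.10, adjusted p = 0.0122), with 3 rises without untreated mouse 26 and 2 without DSS mouse 48. Grem1, a BMP antagonist of the crypt-base stroma, rose from 9.17, 9.09, 8.75, 8.98 and 8.34 to 11.70, 10.41, 10.28, 10.17 and 10.86 (change 1.82, SE 0.27, adjusted p = 0.0092). All DSS mice were above all untreated mice, and mouse 49 was again highest. Of 14 fibroblast genes Grem1 and Bmp4 rose (0.45 for Bmp4, adjusted p = 0.0386, lost without any 1 of 8 mice), and 0 fell. The rises were 4 without DSS mouse 47 and 1 without untreated mouse TG631, 31, 29 or 26 or DSS mouse 48 or 44. Of 16 matrix proteases and inhibitors 2 rose and 0 fell (median change 0.62; 11 were higher and 0 lower at an unadjusted p under 0.05). Plau, the urokinase, rose by 0.81 (SE 0.12, adjusted p = 0.0092) and Mmp7 by 0.92 (adjusted p = 0.0431, lost without any 1 of 7 mice), and the count was 1 without 7 of the 10 mice in turn (TG631, 31, 29, 28, 26, 48 and 46) and 3 without DSS mouse 49 or 47. Timp1, a metalloprotease inhibitor, read 5.67, 5.73, 5.70, 5.71 and 5.54 and then 8.95, 6.70, 6.29, 6.80 and 6.80. The 2 groups were apart in all mice, but the change of 1.44 did not pass (SE 0.40, adjusted p = 0.0615), whereas without mouse 49 a change of 0.98 did (adjusted p = 0.0041). None of 14 smooth muscle genes was called in limma (median change -0.03; 3 were higher and 5 lower at an unadjusted p under 0.05).

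Part of the antigen presentation and interferon genes rose, and their list means were highest in mouse 49. MHC class I genes rose in 2 of 12 and fell in 0 (median change 0.51; 9 were higher and 0 lower at an unadjusted p under 0.05), with 3 rises without untreated mouse 28 and 0 without untreated mouse TG631, 31, 29 or 26 or DSS mouse 48 or 46. MHC class II genes rose in 6 of 14 and fell in 0 (median change 0.79; 10 were higher and 0 lower at an unadjusted p under 0.05). H2-Ab1, a class II chain, read 9.58, 8.57, 9.70, 9.64 and 8.80 and then 11.54, 10.96, 10.49, 10.77 and 10.75 (change 1.64, SE 0.25, adjusted p = 0.0104). The invariant chain Cd74 rose by 1.51 (SE 0.27, adjusted p = 0.0172) and H2-Eb1 by 1.12 (SE 0.21, adjusted p = 0.0172), both lost without DSS mouse 48, and Lgmn, an endosomal protease, rose 2.14-fold (SE 0.18 on the log2 scale, adjusted p = 0.0123). The count was 5 without mouse 49 and 2 without mouse 48. Ciita, the master regulator of class II genes, differed by 0.36 (SE 0.12, adjusted p = 0.1). The list's mean shift was 1.28 in mouse 49 and 0.509 to 0.747 in the other 4. Cd52, a lymphocyte surface protein, rose by 1.89 (SE 0.33, adjusted p = 0.0139), Lgals9, a galectin, by 1.47 (SE 0.18, adjusted p = 0.00507) and Cnn2, a calponin of motile cells, by 1.502 (SE 0.18, adjusted p = 0.00507).

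Type I interferon-stimulated genes rose in 9 of 25 and fell in 0 (median change 0.71; 23 were higher and 0 lower at an unadjusted p under 0.05), and 8 rose without mouse 49. Their mean shift was 1.22 in mouse 49, 0.489 to 0.736 in the other 4 DSS mice, and 0.45 in untreated mouse 28 against -0.216 to -0.034 in the other untreated mice. Ifit1, which binds viral RNA, read 6.26, 6.14, 6.73, 7.49 and 6.60 and then 8.67, 7.51, 7.75, 7.72 and 8.44 (change 1.37, SE 0.28, adjusted p = 0.0236). Untreated mouse 28 lay just below DSS mouse 48. Rtp4 rose by 1.46 (SE 0.29, adjusted p = 0.0227), Usp18, a negative regulator of interferon signalling, by 1.13 (SE 0.23, adjusted p = 0.0224) and Dhx58, an RNA sensor, by 1.03 (SE 0.19, adjusted p = 0.0182). These calls depended on the mice. The count was 4 without untreated mouse TG631, 5 without 31, 1 without 29, 13 without 28 and 0 without 26. It was 2 without DSS mouse 48, 11 without 47, 6 without 46 and 5 without 44. Rtp4 and Usp18 were lost without mouse 29, 26 or 48, Ifit1 without 29 or 26 and Dhx58 without 26 or 48. Of 19 interferon-gamma-induced genes Irf1 alone rose (change 1.20, adjusted p = 0.0456, lost without any 1 of 7 mice) and 0 fell (9 were higher and 0 lower at an unadjusted p under 0.05), with a mean shift of 1.89 in mouse 49, 0.186 to 0.581 in the other DSS mice and 0.497 in untreated mouse 28. The count was 3 without untreated mouse 28 and 0 without mouse 49. Cxcl9, a chemokine induced by interferon-gamma, read 6.85, 6.88, 6.44, 8.28 and 6.87 and then 11.10, 8.03, 7.15, 8.29 and 7.58 (change 1.37, SE 0.64, adjusted p = 0.2).

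A window was matched for 18 of the 25 interferon-stimulated genes, and 10 (55.6%) held the core of the interferon-stimulated response element, GAAANNGAA, against 7.92% of all windows. In the 150 bases before the start of Ifit1 (chr19:34640739-34640888, plus strand) it was found 3 times on the opposite strand, and 2 of these matches overlap, so the first run of capitals holds both. Of 10 class II genes with a window 7 (70.0%) held a CCAAT box, which is part of the class II promoter module. It stands in capitals, once on each strand, in the same stretch of H2-Eb1 (chr17:34305717-34305866, plus strand).
Ifit1: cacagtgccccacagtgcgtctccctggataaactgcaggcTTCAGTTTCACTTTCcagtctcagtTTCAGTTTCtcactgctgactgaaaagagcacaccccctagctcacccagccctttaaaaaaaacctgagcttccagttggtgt
H2-Eb1: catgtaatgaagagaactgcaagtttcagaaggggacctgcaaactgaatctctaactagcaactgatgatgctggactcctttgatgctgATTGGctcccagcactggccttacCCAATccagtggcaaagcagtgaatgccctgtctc

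Some macrophage genes rose. Of 17 macrophage and monocyte genes 4 rose and 1 fell (median change 0.58). In limma 11 of the 17 were higher and 1 lower at an unadjusted p under 0.05, against 14.4% and 11.8% of all genes. Ms4a7, of resident macrophages, read 5.67, 5.43, 5.56, 5.56 and 5.44 and then 6.79, 6.20, 5.99, 6.42 and 6.31 (change 0.81, SE 0.13, adjusted p = 0.0119), and it was called in each fit with 1 mouse left out. The complement subunit C1qa rose by 0.98 (SE 0.19, adjusted p = 0.0191), its partner C1qb by 1.01 (SE 0.21, adjusted p = 0.0258), and the receptor Csf1r by 1.02 (SE 0.23, adjusted p = 0.0334, lost without any 1 of 7 mice). Cd163, a haemoglobin scavenger receptor, fell by 0.36 (SE 0.08, adjusted p = 0.0283), lost without any 1 of 5 mice. C1qa was lost without mouse 29, 26 or 48, and C1qb without 31, 26, 48 or 46. The rises were 2 without untreated mouse 31 or 29 or DSS mouse 46 and 1 without untreated mouse 26 or DSS mouse 48. Of 10 B cell genes Pax5 alone rose (0.44, adjusted p = 0.0476, lost without any 1 of 9 mice) and 0 fell, with 3 rises without DSS mouse 47, while all 10 changes were above 0 (median 0.69; 9 were higher and 0 lower at an unadjusted p under 0.05). The B cell list's mean shift was 1.65 in mouse 49 and 1.08 in mouse 44, against 0.179 to 0.674 in the other 3 DSS mice and -0.242 to 0.316 in the untreated mice. Ms4a1, which encodes CD20, read 8.61, 6.69, 6.84, 6.32 and 8.07 in the DSS mice and 5.52 to 6.39 in the untreated mice (change 1.39, SE 0.40, adjusted p = 0.0691), overlapping through DSS mouse 46. Among 13 T cell and 11 cytotoxic genes 0 were called in limma (6 and 0 were higher at an unadjusted p under 0.05).

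Neutrophil genes were high in mouse 49 and near the untreated level in the other 4 DSS mice. The mean shift of the 16 measured was 1.90 in mouse 49 and -0.009 to 0.161 in the others, against -0.091 to 0.163 in the untreated mice. None was called in limma with mouse 49 (median change 0.51; 1 were higher and 0 lower at an unadjusted p under 0.05) or without it (median 0.06; 3 were higher and 0 lower). S100a8, a subunit of calprotectin, read 5.49, 5.38, 5.31, 5.48 and 5.62 and then 9.58, 6.07, 5.43, 5.57 and 5.44 (change 0.96, SE 0.67, adjusted p = 0.361, and 0.17 without mouse 49). Its partner S100a9 read 6.11, 6.85, 6.33, 6.41 and 6.23 and then 9.50, 6.82, 6.28, 6.56 and 6.13 (change 0.68, SE 0.53, adjusted p = 0.415). With mouse 49 aside, the highest DSS mouse in S100a9 lay below untreated mouse 31. Mmp9, a granule protease, read 5.71 to 5.95 untreated and 7.94, 6.62, 6.17, 6.10 and 6.09 with DSS (change 0.74, SE 0.30, adjusted p = 0.151), so here the other 4 DSS mice were also above all untreated mice.

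The same mouse had the highest list means for cytokines, chemokines and acute phase genes. The mean shift of 29 cytokine genes was 0.72 in mouse 49 and 0.021 to 0.137 in the other DSS mice. That of 29 chemokines was 1.30 against 0.09 to 0.216, and that of 18 acute phase and complement genes 1.53 against 0.188 to 0.604. In the acute phase and complement list every DSS mouse thus lay above the untreated mice (-0.132 to 0.119). Of the 18 genes 2 rose and 0 fell, and 4 rose without mouse 49. The rises were 0 without untreated mouse 29 or 26 or DSS mouse 48. In limma 10 were higher and 0 lower at an unadjusted p under 0.05, against 14.4% and 11.8% of all genes. Il6 read 6.89 in mouse 49, 4.27 to 4.39 in the other DSS mice and 4.28 to 4.38 in the untreated mice (change 0.53, adjusted p = 0.434, and 0.01 without mouse 49). Ifng read 7.78 in mouse 49, 6.02 to 6.25 in the other DSS mice and 6.04 to 6.37 untreated (change 0.29, adjusted p = 0.513). Il1b, the cytokine of activated myeloid cells, was not limited to mouse 49. It read 6.00, 6.25, 6.27, 6.25 and 5.89 and then 11.05, 8.001, 6.46, 7.48 and 7.11, and every DSS mouse lay above every untreated mouse. Its change of 1.89 did not pass with mouse 49 (SE 0.67, adjusted p = 0.111), and a change of 1.13 passed without it (adjusted p = 0.036). Tnf, another myeloid cytokine, was also higher in every DSS mouse and passed in neither fit (change 0.70, adjusted p = 0.135, and 0.40, adjusted p = 0.0558). Saa3, an acute phase protein, read 6.28 to 6.48 untreated and 10.75, 7.72, 6.59, 7.08 and 6.80 with DSS (change 1.37, SE 0.64, adjusted p = 0.198). Cxcl1, a neutrophil-attracting chemokine, read 7.62 in mouse 49 and 6.61 to 7.09 in the other DSS mice, against 7.12 to 7.40 untreated (change -0.12, adjusted p = 0.604).

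Some signalling genes rose. Tgfb1 was the single called cytokine (0.69, SE 0.14, adjusted p = 0.0249, lost without mouse 29, 26 or 48), and Cxcl14, a chemokine of epithelium and stroma, the single called chemokine (0.44, SE 0.08, adjusted p = 0.0189, lost without mouse 26 or 48). Without DSS mouse 49, 2 cytokines were called, and without DSS mouse 47, 2 chemokines. Of 22 cytokine receptor and feedback genes 6 rose and 0 fell (median change 0.32; 10 were higher and 1 lower at an unadjusted p under 0.05). Nfkbiz, an inducible NF-kappaB cofactor, read 7.39, 7.501, 7.34, 7.95 and 7.31 and then 9.51, 8.63, 8.93, 8.84 and 8.46 (change 1.38, SE 0.19, adjusted p = 0.00701) and was called in each fit with 1 mouse left out. Tnfrsf1b, a TNF receptor, rose by 1.17 (SE 0.23, adjusted p = 0.0204), Il4ra by 0.97 (SE 0.20, adjusted p = 0.0224) and Stat3 by 0.60 (SE 0.13, adjusted p = 0.032). The first 2 were lost without mouse 29, 26 or 48 and Stat3 without any 1 of 6 mice. The count of 6 was 3 without untreated mouse 31 or DSS mouse 44 and 1 without untreated mouse 29 or 26 or DSS mouse 48. Among other stress genes, the chaperone cofactor Sdf2l1 rose by 0.95 (SE 0.13, adjusted p = 0.00741), one of 4 rises among 28 endoplasmic reticulum genes (9 without untreated mouse TG631 or DSS mouse 47, 2 without untreated mouse 29, 1 without untreated mouse 26 or DSS mouse 48), and the hexokinase Hk2 by 1.34 (SE 0.27, adjusted p = 0.024, lost without mouse 29, 26 or 48).

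**Figure D3:**
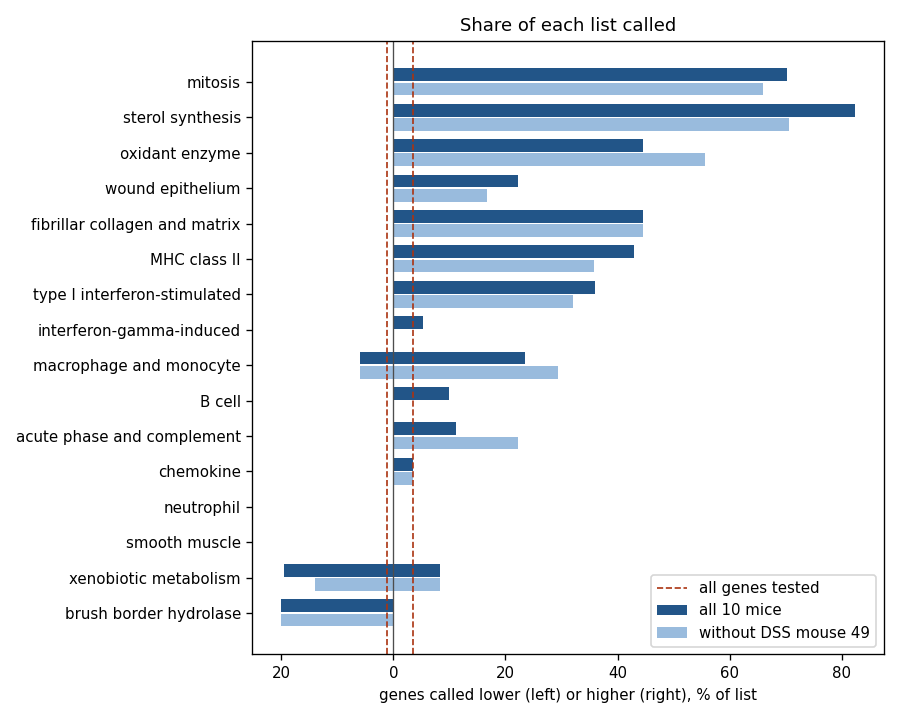
Share of measured genes called higher (right) or lower (left) by limma at adjusted p under 0.05 in 16 lists, in percent, with all 10 mice (dark bars) and without DSS mouse 49 (light bars). Dashed lines give the share over all genes tested with all 10 mice, 3.46% higher and 1.08% lower. The sterol synthesis and mitosis bars, at 14 of 17 and 33 of 47 genes, are the longest and shorten little without mouse 49, while the neutrophil list has no bar.

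Wild-type mice were given the same treatment, with 5 DSS and 5 untreated arrays, and the difference between the 2 DSS effects was tested as an interaction. It passed for 31 genes (0.156% of those tested), of which 30 had the more positive DSS change in the transgenic genotype, and 5 of the 31 were among the 905 called here. Cbr2, a carbonyl reductase, read 7.53, 7.17, 7.80, 7.40 and 7.75 and then 9.15, 9.56, 9.17, 9.63 and 8.66 in transgenic mice (change 1.71, SE 0.18, adjusted p = 0.00456), while its change in wild-type mice was -0.14. The effects differed by 1.84 (SE 0.30, interaction adjusted p = 0.0228). The other 4 were chosen after their values were seen. They were Ttyh2, a chloride channel (0.50 in transgenic and -0.26 in wild-type mice, interaction adjusted p = 0.0155), Unc119, a lipid-binding trafficking protein (0.97 and -0.99, 0.0228), Gsta3, a glutathione transferase (0.85 and -1.08, 0.0407), and Lsr, a lipoprotein receptor of cell junctions (0.35 and -0.68, 0.034). In the 20 interaction fits that each left out 1 mouse, Ttyh2 was called in 20, Cbr2 in 16, Unc119 in 14, Lsr in 8 and Gsta3 in 6.

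The number of interaction genes rested on single mice. It was 4 without wild-type untreated mouse 8 or transgenic untreated mouse 31, 5 without transgenic DSS mouse 48 or 47, 7 without wild-type untreated mouse 7, 9 without 10 and 13 without 11. It was 10 without transgenic untreated mouse 28 or transgenic DSS mouse 46 or 44, 14 without wild-type DSS mouse 56, 15 without transgenic untreated mouse TG631 and 59 without wild-type untreated mouse 9. With the mean of the posterior Hox genes, which mark position along the gut, as a covariate 0 genes passed in limma (979 at an unadjusted p under 0.05), and position and genotype were not tested apart. The 8 posterior Hox genes had a median change of -1.015 in wild-type and -0.015 in transgenic mice. Of 16 circadian clock genes, 5 were among the 31, and the median change of the 16 was -1.016 without the transgene and -0.006 with it. The part of either in the interaction was not tested. Within the transgenic comparison itself none of 8 posterior Hox genes was called (0 were higher and 1 lower at an unadjusted p under 0.05), and the count of calls with this covariate was 833. Of the genes described above, the difference from wild-type mice did not pass for Retnlb (4.19 against 7.29, interaction adjusted p = 0.164), Reg3g (1.85 against 6.59, 0.0992), Reg3b (1.18 against 5.92, 0.105), Saa3 (1.37 against 4.51, 0.231) or S100a8 (0.96 against 3.23, 0.644). It did not pass either for Top2a (1.54 against 2.20, 0.916), Mvk (0.65 against 0.17, 0.427), Col1a1 (1.25 against 1.36, 0.96) or H2-Ab1 (1.64 against 1.57, 0.983). The unadjusted 95% interval of the difference was -7.00 to -2.47 for Reg3g and 0.12 to 0.85 for Mvk, so a call that did not pass does not show equal effects.

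**Figure D4:**
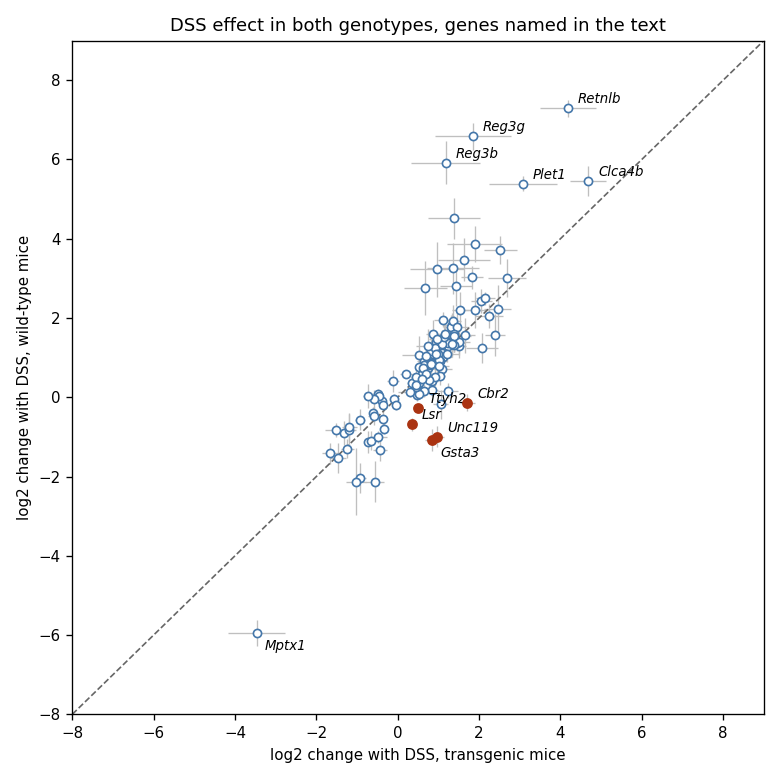
Log2 change with DSS in transgenic mice (horizontal axis) against that in wild-type mice (vertical axis) for genes named in the text, with moderated standard errors as bars. The dashed line marks equal change. Filled points are Cbr2, Ttyh2, Unc119, Gsta3 and Lsr, the named genes with an interaction adjusted p under 0.05, and Retnlb, Reg3g and Reg3b lie above the line with an interaction that did not pass.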

How the data were processed

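The series holds 35 colon RNA samples in 7 groups of 5 mice, each hybridised to an Affymetrix Mouse Gene 1.0 ST array. The deposited log2 values were made with RMA in Affymetrix Expression Console 1.1, per the submitters' processing notes; no batch correction is named there. They ran from 3.78 to 14.4 over 28090 probe sets. The arrays' distributions were not equal: medians ran from 6.65 to 6.95 and SDs from 1.64 to 2.03 over the 35 arrays. Of these probe sets 21639 had 1 gene symbol, 1539 several, and the rest none. For each of 19908 genes the probe set with the highest mean over the 35 arrays was kept. Groups were taken from the sample titles.

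DSS and untreated transgenic mice were compared with limma 3.58.1 in R 4.3.3 (lmFit and eBayes, 2-sided, Benjamini-Hochberg adjustment over all 19908 genes, called at an adjusted p under 0.05). The difference between transgenic and wild-type DSS effects was an interaction in a model of the 20 conventional arrays. The analysis code was tested on simulated data. Lists are described by counts and medians. Python 3.11.15, numpy 2.4.6, pandas 2.3.3 and matplotlib 3.10.9 were used for summaries and plots.

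Named genes were the 15 largest rises and the 15 largest falls among called genes without overlap, the 10 smallest p in each direction, up to 4 members per list with the smallest p, and a fixed set of colitis genes; predicted genes and clones were skipped in the first steps. Slpi, Plet1, Cyba, Csf1r, Ttyh2, Unc119, Gsta3 and Lsr fall outside this rule and were chosen after their values were seen. The members, the lists and the rule were chosen with earlier results of these data known. Alternatives were array weights, quantile normalization, other arrays in the model, a trended robust variance, other probe set choices, a filter at the 40th percentile of signal, covariates, and leaving out each mouse. Leaving out mice other than 49 for the list counts was chosen after seeing the data.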

Additional observations from a re-analysis of the deposited data

Results flagged for a closer look

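The 128 named genes and the means of 54 lists were searched in each group of 5 transgenic mice. A mouse standing apart from the other 4 by Dixon's ratio was flagged, which chance alone does in about 1 of 20 groups. There were 22 flags for genes and 17 for lists. For DSS mouse 49 the chance rate does not apply, because it was singled out beforehand by its gene levels. The genes and lists were also chosen with earlier results known, so its flags are a description. DSS mouse 49 was high in 13 named genes. Its log2 levels were 11.35 for Lcn2, 10.64 for Col1a1, 8.95 for Timp1, 10.27 for Cd52, 11.10 for Cxcl9 and 10.03 for C1qb. They were 9.58 for S100a8, 9.50 for S100a9, 7.94 for Mmp9, 6.89 for Il6, 8.20 for Tnf, 7.78 for Ifng and 10.75 for Saa3. Its list means, in log2 units above the untreated mean, stood apart for neutrophil (1.90), interferon-gamma-induced (1.89), matrix protease (1.69), chemokine (1.30), macrophage and monocyte (1.15), leukocyte adhesion (1.08), cytokine receptor and feedback (1.00), cytokine (0.72), eicosanoid (0.54), T cell (0.35) and enteric neuron and glia genes (0.24).

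Untreated mouse 28 stood apart as high in Lgals9 (9.99), Usp18 (7.21) and Cxcl9 (8.28) and in the means of the type I interferon-stimulated (0.45), interferon-gamma-induced (0.50) and MHC class I lists (0.40). Untreated mouse TG631 stood apart in pancreatic acinar genes (3.35). Untreated mouse 31 was low in Apob (8.22) and in sterol regulation and transport genes (-0.15) and high in enteric neuron and glia genes (0.09), and untreated mouse 29 was low in Gpx2 (10.64). Among the other DSS mice, mouse 47 was low in Nox1 (9.38) and high in Pdk4 (6.61), mouse 48 high in Sprr1a (10.09) and mouse 46 low in Ces1d (6.61).

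The DSS effect differed between transgenic and wild-type mice, by limma's interaction test, for Cbr2 (transgenic minus wild-type 1.84), Gsta3 (1.93), Lsr (1.03), Ttyh2 (0.77) and Unc119 (1.96). With posterior Hox level as a covariate the interaction adjusted p of each was 0.796.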

How the results depend on the processing

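No paired analysis was possible because the groups share no mouse numbers. The number of genes called was 905, of which 689 were higher and 216 lower. It was 3266 (1872 and 1394) with array weights, 600 (410 higher) with all 35 arrays, 463 (355 and 108) with the 20 conventional arrays, 573 (450 and 123) with smooth muscle level as a covariate and 350 (241 and 109) with array spread as a covariate. Lower genes numbered 429 after quantile normalization, 339 with a trended robust variance and 112 above the 40th percentile of signal. With 1 mouse left out the totals ranged from 178 to 1668, the higher genes from 153 to 1090 and the lower genes from 25 to 578. Interaction genes numbered 31, 232 with array weights, 0 with the posterior Hox covariate (979 at an unadjusted p under 0.05 in limma) and 4 to 59 with 1 of the 20 mice left out. The cause of these moves was not tested, beyond the smaller number of mice or genes in the fit. None of the 128 named genes changed sign while called under the alternatives run, which is a weak test because most were called on these same mice. Of 103 named and called, 54 were called in all 10 fits with 1 mouse left out, 48 were lost without DSS mouse 48, 37 without untreated mouse 26, 35 without untreated mouse 29 and 9 without DSS mouse 49. The precision was limited by 5 arrays per group, and no detection call was used, so dim genes were tested with the rest.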
